A study of Bos taurus with 35 samples.

Results

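Chemokines are small secreted proteins that bind receptors on white blood cells and steer where those cells move, and 10 chemokine genes were followed here in beef muscle over 3 days after slaughter. They are the genes whose symbol in the study's lists of differentially expressed (DE) genes is CCL, CXCL, CX3CL or XCL followed by a digit, leaving out 1 gene that is not reported here, and as far as the copy of the lists goes, which is shortened within the 72 h downregulated genes: *CXCL8*, *CXCL3*, *CXCL9*, *CCL11*, *CCL24*, *CCL26*, *CCL21*, *CCL25*, *CCL1* and *XCL1*. The 10 were found by Ensembl identifier among the 27607 genes of the count table, and all 10 were among the 14630 genes that passed the filter on low counts. Because the lists were made by comparing each later time point with 0 h in these same samples, the differences from 0 h given here describe genes already chosen for such differences and are not tests of them. Differences between animals did not enter the choice of genes and were tested. Changes between successive later time points were tested too, but their libraries entered the lists through the comparisons with 0 h. The tests of these changes are therefore not independent of the choice.

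Core samples of *longissimus thoracis* (LT), the muscle along the back that gives the rib and loin cuts, were taken from 7 crossbred beef heifers weighing 525 to 635 kg. Every animal was sampled at 5 time points *post-mortem*, namely 45 min after death (called 0 h) and then 6, 24, 48 and 72 h, always from the left carcass side hung in a cooler, which gave 35 libraries with no pooling of animals. No group received a treatment: the 5 groups differ by time since death only, and the 0 h group served as the reference. Gene reads were counted per library and are given as CPM, a gene's reads as a share of its library's, after trimmed mean of M-values (TMM) scaling, with totals of 20568418 to 104275821 counted reads per library (median 40133660), so that 1 read was worth 0.01 to 0.0506 CPM.

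Chemokines are grouped by the spacing of their first cysteines into CC, CXC and C families, and most act through receptors of the G protein-coupled type. CXCL8 (interleukin-8) and CXCL3 draw neutrophils, CXCL9 is induced by interferon gamma and draws activated T cells, and CCL11, CCL24 and CCL26 are the eotaxins, which draw eosinophils. CCL21 guides T cells and dendritic cells towards lymphatic vessels and lymph nodes, CCL25 is best known from the thymus and small intestine, CCL1 binds CCR8, and XCL1, made by T and natural killer (NK) cells, binds XCR1 on a class of dendritic cells.

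A gene is called upregulated or downregulated below at a false discovery rate (FDR) under 0.05 with a fold change above 1.5. By that rule 1 of the 10 chemokine genes was upregulated and 0 were downregulated at 6 h against 0 h, beside 0.349% and 0.185% of all genes tested. At 24 h 3 were upregulated and 0 downregulated, where the shares of all genes were 0.725% and 0.95%. At 48 h 5 were upregulated and 2 downregulated, with 2.96% and 6.3% of all genes. At 72 h the numbers were 6 and 2, with 9.8% and 15.4% of all genes. The edgeR counts of 0 downregulated stand beside 1 member that was lower at an unadjusted p under 0.05 at 6 h and 2 at 24 h, and over the alternative settings and tools they were 0 at 6 h and 0 to 1 at 24 h. Nothing can be read from these shares, since being called is how the genes were picked. The median log2 fold change of the 10 genes was, in time order, 0.22, 0.28, 0.48 and 0.71, and that of all genes tested 0, 0, 0 and 0.01.

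**Figure D1:**
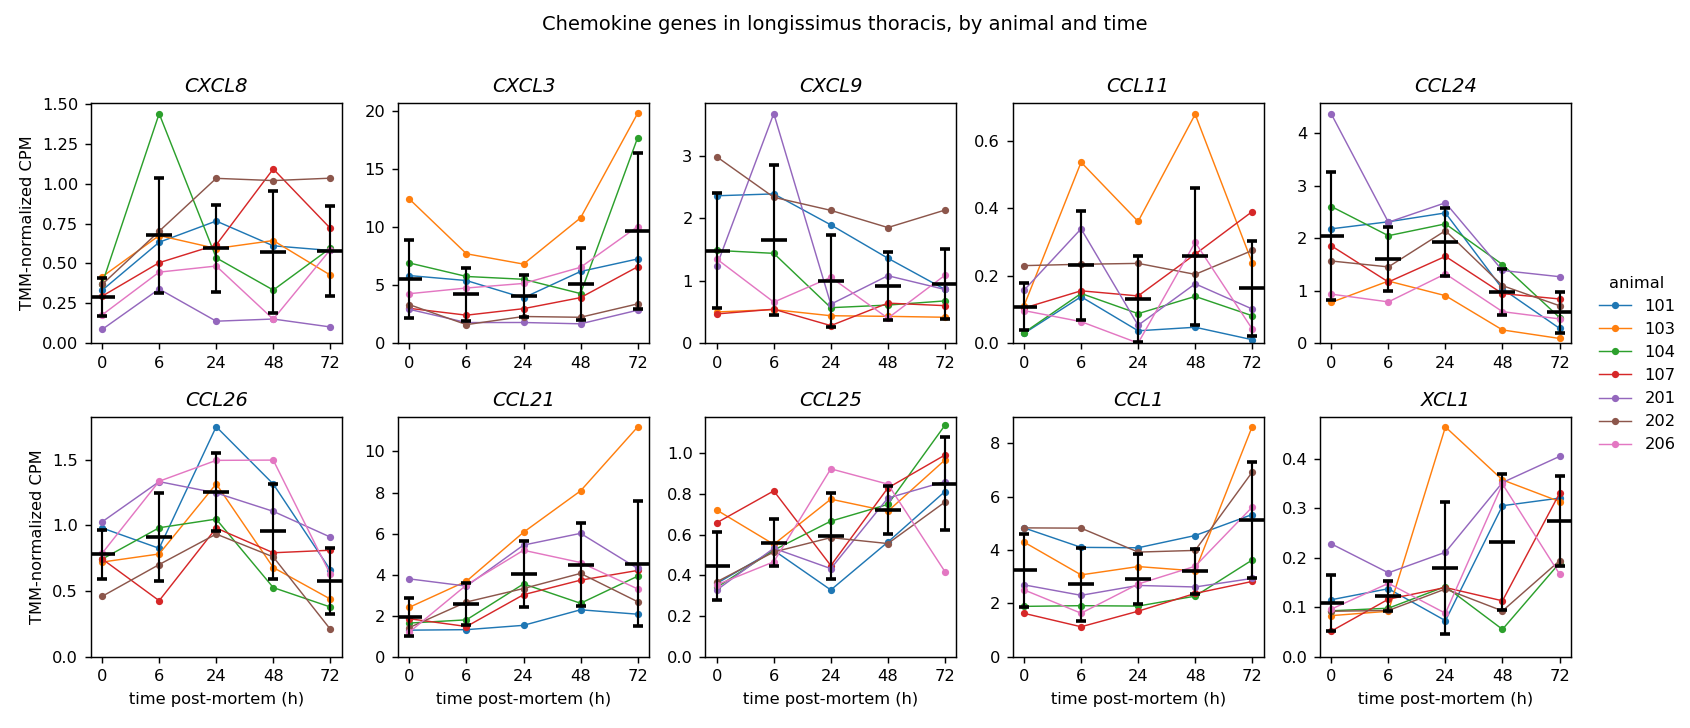
TMM-normalized CPM of each of the 10 chemokine genes (vertical axis, from 0, own scale per gene) against time *post-mortem* in hours (horizontal axis, time points evenly spaced), with 1 coloured line per animal and black bars for the mean ± SD of 7 animals. *CCL24* declined after 24 h in all 7 animals, *CCL21* at 24 h lay above 0 h in all 7, and *CXCL8* of animal 104 stood at 1.44 CPM at 6 h.

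*CXCL8* (ENSBTAG00000019716), the neutrophil attractant, was the only member past both thresholds by 6 h. Its level at 0 h ran from 0.0856 CPM in animal 201 through a median of 0.332 to 0.416 CPM in animal 103, and at 6 h from 0.339 CPM in animal 201 through 0.633 to 1.44 CPM in animal 104. All 7 animals had more at 6 h than at 0 h, yet the groups overlapped because the lowest animal at 6 h lay below the highest at 0 h. The log2 fold change was 1.31 ± 0.27 (SE from the fitted model), a fold change of 2.48. The differences of single animals ran from 0.65 in animal 103 to 1.84 in animal 104. They were taken from log2 CPM with a prior count of 2, which shrinks differences at low counts. In plain CPM the ratio of animal 201, with 6 reads at 0 h and 14 at 6 h, was larger, so the upper end depends on the prior.

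At later times the medians of *CXCL8* lay close to that of 6 h. The median was 0.594 CPM at 24 h (0.137 to 1.03), 0.611 CPM at 48 h (0.15 to 1.09) and 0.586 CPM at 72 h (0.101 to 1.03). Animal 201 was the lowest at 4 of the 5 time points and animal 202 the highest at 24 h and 72 h. Against 0 h the log2 fold changes at 24, 48 and 72 h were 0.96 ± 0.28, 0.93 ± 0.28 and 0.93 ± 0.28, with 7, 5 and 7 animals higher. None of the steps between later time points passed the test, at −0.35 ± 0.24 from 6 to 24 h (FDR 0.85), −0.02 ± 0.25 from 24 to 48 h (FDR 0.97) and 0 ± 0.25 from 48 to 72 h (FDR 0.99). Counts behind these values were small, from 2 to 88 reads per library. The 24 h call was lost without animal 101, 103, 107, 201, 202 or 206, where the log2 fold change was 0.86 to 1.03 and the FDR 0.052 to 0.094, and the 48 h call was lost without animal 107 (0.74, FDR 0.051).

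*CXCL3* (ENSBTAG00000037778), another neutrophil attractant, ran a different course: it was called upregulated only at 72 h, and its rise came in the last day. Its median went from 4.26 CPM at 0 h (2.91 to 12.4) to 4.75 at 6 h (1.59 to 7.7), 3.9 at 24 h (1.77 to 6.81), 4.27 at 48 h (1.66 to 10.8) and 7.26 at 72 h (2.83 to 19.8). Animal 103 was the highest at all 5 time points, and the 72 h group overlapped with every other group. From 48 to 72 h *CXCL3* rose by 0.86 ± 0.16 on the log2 scale (FDR 0.00062), higher in 7 of 7 animals, from 0.23 in animal 101 to 2.04 in animal 104. Against 0 h it stood at −0.40 ± 0.16, −0.39 ± 0.16, −0.14 ± 0.16 and 0.73 ± 0.16 in time order, and the 72 h call was lost without animal 104, where the value was 0.58. In the RefSeq gene order of the newer assembly ARS-UCD2.0 *CXCL3* lies between *CXCL2* and *GRO1*, its close relatives, so that its reads may be shared with theirs and its level is uncertain.

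*CXCL9* (ENSBTAG00000050852), the interferon-induced attractant of T cells, was lower late than early. Its median was 1.35 CPM at 0 h (0.468 to 2.99), 1.44 at 6 h (0.537 to 3.68), 0.623 at 24 h (0.28 to 2.13), 0.641 at 48 h (0.399 to 1.85) and 0.861 at 72 h (0.414 to 2.13). Animal 202 was the highest at 4 of the 5 times, while animal 201 had the single highest value at 6 h. The log2 fold change against 0 h was 0.19 ± 0.25, −0.66 ± 0.26, −0.66 ± 0.27 and −0.62 ± 0.27 in time order, with 7 of 7 animals lower at 24 h and 6 of 7 at 48 h and 72 h. The step from 6 to 24 h, −0.85 ± 0.26, was lower in 6 of 7 animals and did not pass (FDR 0.28).

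The *CXCL9* calls lay at the edge of the rule. The FDR was 0.047 at 48 h and 0.044 at 72 h, just inside, and 0.13 at 24 h, outside. Without animal 101, 103, 104, 202 or 206 the 48 h call was lost (log2 fold change −0.71 to −0.55), and without 101, 103, 104 or 202 the 72 h call was lost (−0.67 to −0.42). Of 11 listed genes of the interferon gamma response 0 were found by symbol in the copy of the study's lists read here, and they were not analysed here.

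The 3 eotaxin genes were called at different times and in different directions. *CCL24* (eotaxin-2, ENSBTAG00000026275) declined steeply after 24 h. It had a median of 1.85 CPM at 0 h (0.776 in animal 103 to 4.36 in animal 201), 1.45 at 6 h (0.785 to 2.31), 2.14 at 24 h (0.903 to 2.67), 1.03 at 48 h (0.25 to 1.5) and 0.487 at 72 h (0.0879 to 1.26). The lowest sample of all was animal 103 at 72 h, with 7 reads, and that animal was also lowest at 0 h, 24 h and 48 h. *CCL24* fell by 0.99 ± 0.23 on the log2 scale from 24 to 48 h (FDR 0.005) and by 0.90 ± 0.26 from 48 to 72 h (FDR 0.01), lower in 7 of 7 animals each time. The second step was lost without animal 101 (−0.70, FDR 0.053) or 104 (−0.77, FDR 0.069). Against 0 h the values in time order were −0.23 ± 0.21, −0.04 ± 0.21, −1.03 ± 0.23 and −1.94 ± 0.25, the last a level of 0.261 times that at 0 h. Even so the 72 h and 0 h groups overlapped, since animal 201 at 72 h (1.26 CPM) lay above animals 103 and 206 at 0 h (0.776 and 0.932 CPM).

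*CCL26* (eotaxin-3, ENSBTAG00000052510), the gene next to *CCL24* in the RefSeq order, had its highest median at 24 h and its lowest at 72 h. Its median was 0.745 CPM at 0 h (0.46 to 1.03), 0.826 at 6 h (0.427 to 1.34), 1.25 at 24 h (0.934 to 1.75), 0.792 at 48 h (0.527 to 1.5) and 0.628 at 72 h (0.21 to 0.911). At 24 h all 7 animals were above their own 0 h sample, and the 72 h and 0 h groups overlapped. The fall from 48 to 72 h was −0.79 ± 0.20 (FDR 0.0038), lower in 6 of 7 animals. Against 0 h it was 0.68 ± 0.18 at 24 h, a call lost without animal 101, 103 or 206 (0.62 to 0.66). At 72 h it was −0.51 ± 0.20, short of the fold threshold at an FDR of 0.024 and called without animal 107 (−0.61).

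*CCL11* (eotaxin, ENSBTAG00000004129) had few reads, 0 to 35 per library. The median was 0.104 CPM at 0 h (0.0288 to 0.23), 0.155 at 6 h (0.0636 to 0.537), 0.0874 at 24 h (0 to 0.361), 0.204 at 48 h (0.047 to 0.679) and 0.101 at 72 h (0.01 to 0.39). Animal 103 was the highest at 6 h, 24 h and 48 h, and animal 206 had 0 reads at 24 h. Its log2 fold changes against 0 h were 1.07 ± 0.42, 0.16 ± 0.44, 1.03 ± 0.43 and 0.42 ± 0.44 in time order. Only the 48 h value was called, at an FDR of 0.045, and it was lost without animal 101, 104, 107 or 206 (0.95 to 1.06), while without animal 103 the gene did not pass the filter on low counts.

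**Figure D2:**
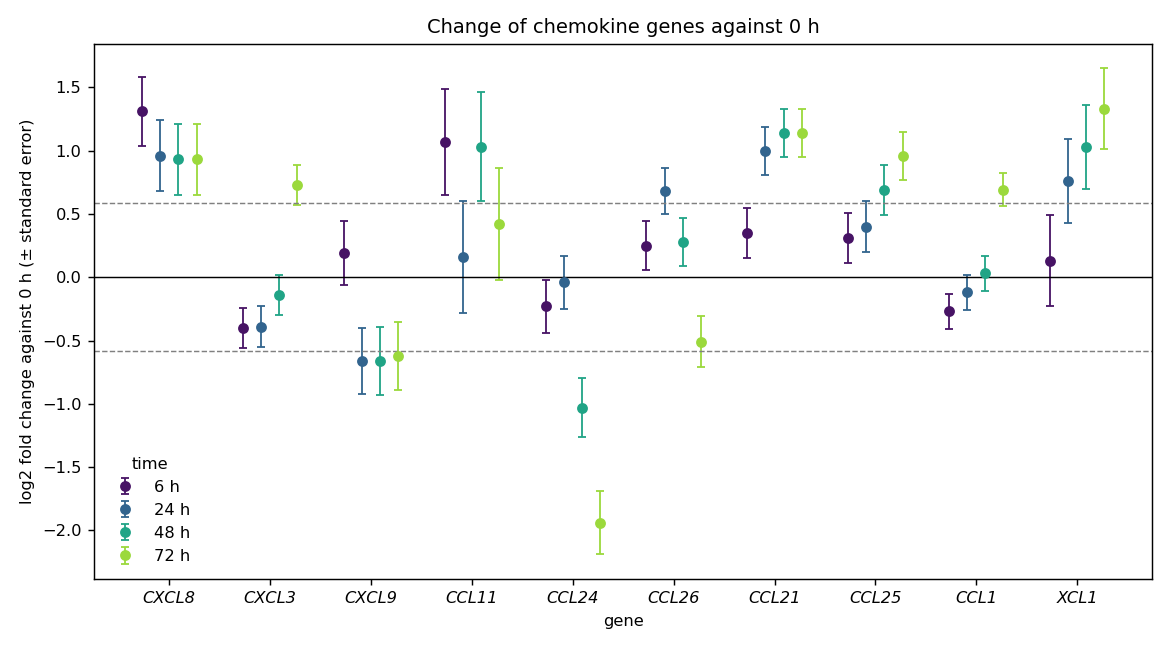
Log2 fold change against 0 h (vertical axis) of each chemokine gene (horizontal axis) at 6, 24, 48 and 72 h; points are estimates over 7 animals, bars are ± standard error of the fitted model and dashed lines mark the fold change of 1.5. *CCL24* reached −1.94 at 72 h, *CXCL8* lay between 0.93 and 1.31 throughout, and *CXCL3* and *CCL1* left the band between the lines at 72 h only.

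*CCL21* (ENSBTAG00000010161), the guide of T cells and dendritic cells to lymphatics, had a higher median at each time point up to 48 h, and was called upregulated from 24 h on. Its median was 1.64 CPM at 0 h (1.21 to 3.79), 2.67 at 6 h (1.32 to 3.68), 3.55 at 24 h (1.53 to 6.06), 4.06 at 48 h (2.29 to 8.08) and 3.92 at 72 h (2.07 to 11.2). All 7 animals were above their own 0 h sample at 24, 48 and 72 h, with animal 103 the highest at the 4 later times and animal 101 the lowest. The groups still overlapped, since animal 101 at 24, 48 and 72 h lay below the 0 h levels of animals 103 and 201 (2.41 and 3.79 CPM). The log2 fold change against 0 h was 0.35 ± 0.20, 1.0 ± 0.19, 1.14 ± 0.19 and 1.14 ± 0.19 in time order. The step from 6 to 24 h was 0.65 ± 0.19, higher in 7 of 7 animals, and did not pass over all genes (FDR 0.2), while in a fit of those 2 time points alone it did (0.66, FDR 0.024). The steps after 24 h were 0.14 ± 0.18 (FDR 0.62) and −0.01 ± 0.18 (FDR 0.98). *PROX1*, a transcription factor of lymphatic endothelium and the only one of 6 listed markers of that cell type that the lists name, was downregulated by 1.36 ± 0.24 on the log2 scale at 72 h. It too was picked by the comparisons with 0 h, and 1 gene does not measure a cell type. The part of lymphatic endothelium was not tested.

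*CCL25* (ENSBTAG00000005581) had its lowest median at 0 h and its highest at 72 h, and no single step between later times passed. The median was 0.36 CPM at 0 h (0.328 to 0.721), 0.524 at 6 h (0.467 to 0.815), 0.585 at 24 h (0.328 to 0.923), 0.749 at 48 h (0.556 to 0.848) and 0.861 at 72 h (0.419 to 1.14). Animal 206 went from the highest at 24 h and 48 h to the lowest at 72 h. Against 0 h the log2 fold change was 0.31 ± 0.20, 0.40 ± 0.20, 0.69 ± 0.20 and 0.96 ± 0.19 in time order, and the 48 h call was lost without animal 201 (0.58). The 3 later steps were 0.09 ± 0.19, 0.28 ± 0.19 and 0.27 ± 0.18, with FDRs of 0.94, 0.3 and 0.26.

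*CCL1* (ENSBTAG00000008832), the ligand of CCR8, rose in the last day, as *CXCL3* did. Its median was 2.69 CPM at 0 h (1.63 to 4.83), 2.3 at 6 h (1.12 to 4.82), 2.73 at 24 h (1.71 to 4.09), 3.22 at 48 h (2.27 to 4.54) and 5.33 at 72 h (2.82 to 8.62). From 48 to 72 h *CCL1* rose by 0.66 ± 0.14 on the log2 scale (FDR 0.0013), in 7 of 7 animals, from 0.16 in animal 201 to 1.41 in animal 103, and without animal 103 the step was 0.50 and no longer past the fold threshold. Against 0 h it lay between −0.27 ± 0.14 and 0.03 ± 0.14 until 48 h and was 0.69 ± 0.13 at 72 h.

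*XCL1* (ENSBTAG00000009938), the T and NK cell product, also had few reads, 2 to 32 per library. The median was 0.0929 CPM at 0 h (0.052 to 0.228), 0.116 at 6 h (0.0921 to 0.17), 0.14 at 24 h (0.0729 to 0.465), 0.305 at 48 h (0.0554 to 0.358) and 0.314 at 72 h (0.167 to 0.405). The 48 h animals split, with 101, 103, 201 and 206 near 0.3 CPM or above and 104, 107 and 202 near the 0 h level. Against 0 h the log2 fold change was 0.13 ± 0.36, 0.76 ± 0.33, 1.03 ± 0.33 and 1.33 ± 0.32, and the 48 h call was lost without animal 101 (0.90). No step between later times passed (FDR 0.43 to 0.82). *XCL1* lies next to *XCL2* in the RefSeq order, a near-identical relative in other mammals, so that its reads may be shared as well.

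The steps between later time points can be set side by side, although their libraries also entered the choice of genes. From 6 to 24 h edgeR called 0 of the 10 genes (0.547% of all genes), 4 had an unadjusted p under 0.05 (2 higher, 2 lower), and DESeq2, limma voom and edgeR's likelihood ratio test called 0 as well. From 24 to 48 h 1 of 10 was called, *CCL24*, against 2.26% of all genes. From 48 to 72 h 4 of 10 were called, *CXCL3* and *CCL1* upward and *CCL24* and *CCL26* downward, where 0.786% of all genes were upregulated and 3.73% downregulated (4.51% in all). *CXCL3* and *CCL1* were called against 0 h only at 72 h, so that their rise in this step follows in part from that call. The shares of all genes are therefore no yardstick for the 4. No chemokine gene had all 7 samples of a time point above or below all 7 of 0 h, which among all genes happened upward for 0.13%, 0.253%, 3.11% and 7.9% and downward for 0.0957%, 0.396%, 3.34% and 10.1% at the 4 later time points in order. Of the 4 gaps between neighbours when a gene's 5 mean levels are sorted, at most 1 exceeded the SDs of both neighbours, and that was a gap of *CCL24*.

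Animals differed in most of these genes as they did in most of the transcriptome. In the test for any difference between the 7 animals 9 of the 10 passed, near the 82.5% of all genes, and *CCL25* did not (F = 1.89, FDR 0.13, and 0.039 without animal 206). *CXCL3* had the largest F of the 10 (38.1, FDR 6.2e-11), with a mean over the 5 times of 11.5 CPM in animal 103 and 2.19 CPM in animal 201, a ratio of 5.25. *CXCL8* averaged 0.832 CPM in animal 202 and 0.163 CPM in animal 201, a ratio of 5.1, and *CXCL9* 2.29 CPM in animal 202 and 0.464 CPM in animal 103, a ratio of 4.94. The ratio was 7.4 for *CCL11*, 3.75 for *CCL24*, 3.7 for *CCL21*, 2.54 for *CCL1*, 2.35 for *XCL1*, 1.88 for *CCL26* and 1.45 for *CCL25*, where the median over all genes tested was 1.46. That median was not matched for level, and few reads alone widen such a ratio, most of all for *CCL11* and *XCL1*. The ratios therefore do not show that these genes vary more between animals than other genes of like level.

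No animal was high in every chemokine gene. Animal 103 had the highest mean of *CXCL3*, *CCL11* and *CCL21* and the lowest of *CXCL9* and *CCL24*, while animal 201 had the highest of *CCL24* and *XCL1* and the lowest of *CXCL8* and *CXCL3*. Of the sum of squares of log2 CPM, the animal took 72.3% for *CXCL3*, 67.6% for *CXCL9*, 60.9% for *CCL1* and 58.6% for *CXCL8*, and time took 19.2%, 10.9%, 26.1% and 18.7%. Time took a larger share than the animal for *CCL24* (47.9% against 38.2%), *CCL25* (42% against 16.7%), *CCL26* (39.5% against 33.8%) and *XCL1* (33.8% against 26.3%). The rest, due to neither, took 13.8%, 41.3%, 26.7% and 40% for these genes in order, more than time for *XCL1*. The genes were chosen for differences from 0 h, so the shares of time follow in part from that choice.

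**Figure D3:**
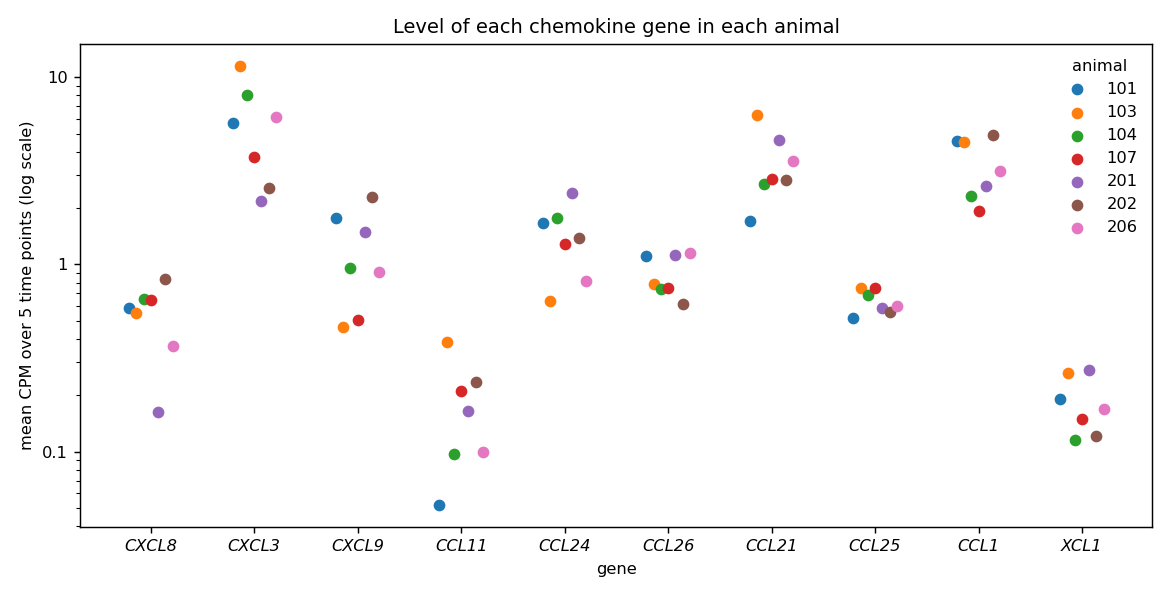
Mean CPM over the 5 time points (vertical axis, log scale) of each chemokine gene (horizontal axis), with 1 coloured point per animal. The 7 animals spread 5.25-fold for *CXCL3* and 1.45-fold for *CCL25*, and animal 103 is at the top for *CXCL3* and near the bottom for *CXCL9* and *CCL24*.

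Of 27 other chemokine ligand genes on a list, 0 could be found by symbol. Every such gene that the copy of the study's lists names was already a member or was left out. That copy is shortened within the 72 h downregulated genes. The 27 genes were not analysed here, and the 0 does not show that they were unchanged. The receptors were looked up in a list of 22 chemokine receptor genes, 6 of which the study's lists name and so pair with an identifier. Those 6 were picked by the same comparisons with 0 h, and at the 4 later time points in order 0, 0, 3 and 2 of them were upregulated and 1, 0, 1 and 3 downregulated. Of all genes tested 0.349%, 0.725%, 2.96% and 9.8% were upregulated and 0.185%, 0.95%, 6.3% and 15.4% downregulated. The counts of called receptors follow from the choice and are no result of their own. *XCR1*, the receptor of *XCL1*, was at 0.308 ± 0.167 CPM (SD, n = 7) at 0 h and 0.131 ± 0.0916 CPM at 6 h, and its log2 fold changes against 0 h were −1.25 ± 0.34, −0.90 ± 0.31, −0.87 ± 0.33 and −1.01 ± 0.33 in time order. Its level was thus lower at the times when its ligand's median was higher, but at 6 h *XCL1* stood at only 0.13 ± 0.36. The *XCR1* value at 24 h was not called (FDR 0.074). Its 6 h call was lost without animal 101, 103, 107, 201 or 206, and levels of both genes were low. *XCR1* was also the only one of 5 listed dendritic cell markers that the lists name. *CCR8*, the receptor of *CCL1*, went from 0.46 ± 0.123 CPM at 0 h to 0.739 ± 0.235 at 48 h and 0.734 ± 0.203 at 72 h, log2 fold changes of 0.65 ± 0.21 and 0.64 ± 0.20.

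*ACKR1*, a receptor of venous endothelium and red cells that binds many chemokines without signalling, had the largest increase of the 6, from 0.941 ± 0.438 CPM at 0 h to 2.57 ± 0.702 at 72 h (1.47 ± 0.24 on the log2 scale). Its step from 48 to 72 h, 0.63 ± 0.23, passed the test (FDR 0.033), and none of the other 5 receptors had a called step between later times. *CXCR4*, the receptor of CXCL12, rose to 12.6 ± 2.32 CPM at 48 h from 7.8 ± 2.06 at 0 h (0.72 ± 0.14). *CCR1* and *CCR6* were downregulated at 72 h by 0.78 ± 0.17 and 1.33 ± 0.32 on the log2 scale. Of 11 listed genes of receptor signalling 1 was named, *RAC2*, a small GTPase of blood cells, which stood at 0.69 ± 0.15 at 72 h.

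**Figure D4:**
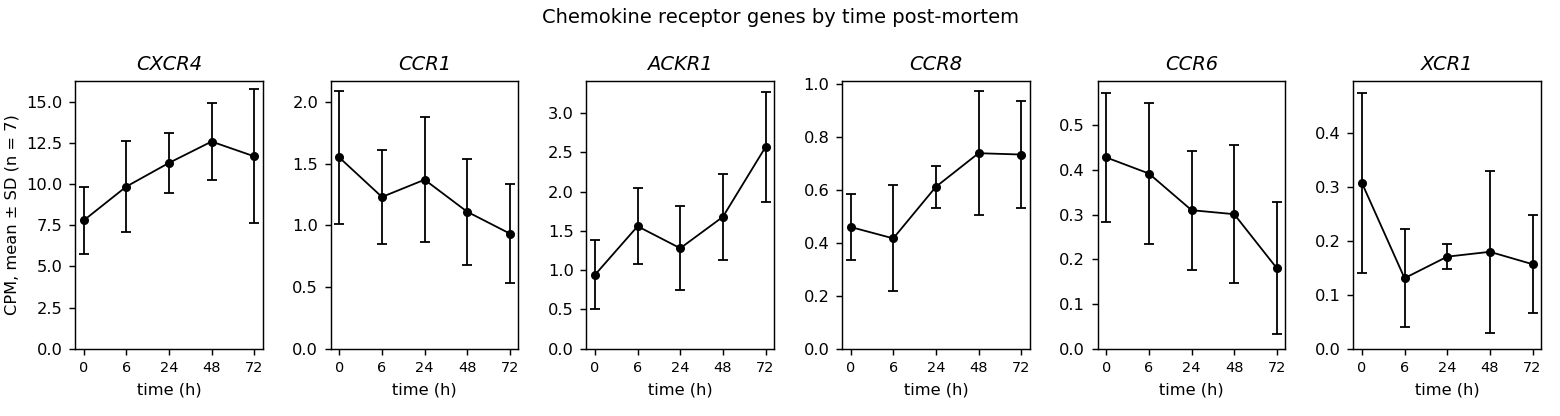
CPM (vertical axis, from 0, own scale per gene) of 6 chemokine receptor genes against time *post-mortem* in hours (horizontal axis), as mean ± SD of 7 animals. *CXCR4*, *ACKR1* and *CCR8* were higher late, and *CCR1*, *CCR6* and *XCR1* were lower at 72 h than at 0 h.

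Genes of the immediate inflammatory response were also looked up, and 4 of 19 were named by the lists, so that they too were picked by the comparisons with 0 h. Of all genes tested 0.349% were upregulated at 6 h and 9.8% at 72 h. *JUNB*, a subunit of the AP-1 transcription factor, was upregulated from 6 h on, the time at which *CXCL8* first passed, with 54.6 ± 18.6 CPM at 0 h and 89.2 ± 32.1 at 6 h (0.68 ± 0.14 on the log2 scale) and 1.32 ± 0.14 at 72 h. *ATF3*, *FOS* and *IER3* were upregulated only at 72 h, by 0.98 ± 0.21, 0.76 ± 0.22 and 0.72 ± 0.10. Of these 4 *ATF3* alone had a called step between later times, 0.64 ± 0.21 from 48 to 72 h (FDR 0.024), the step in which *CXCL3* and *CCL1* rose.

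Whole muscle cores hold several cell types, so that fewer cells of a type and less RNA per cell cannot be told apart. Macrophage markers moved with *CCL24*. Of 9 listed markers 7 were named (*CD163*, *CSF1R*, *MRC1*, *CD14*, *C1QA*, *C1QB* and *C1QC*), 5 were downregulated at 48 h and 7 at 72 h, with medians of −0.87 and −1.45 on the log2 scale, and none was at 0. Of all genes tested 6.3% and 15.4% were downregulated at 48 h and 72 h. The lists name only genes called at some time against 0 h, so counts of called markers follow from that choice. Their summed level was 47.1 to 155 CPM at 0 h, 63.7 to 102 at 24 h, 35.5 to 75.3 at 48 h and 16 to 53 at 72 h. After subtraction of each animal's mean, *CCL24* followed that sum with r = 0.93 over the 35 samples, which come from 7 animals and share libraries, and *CCL26* with r = 0.56, while the r of *CCL24* with the summed muscle genes *TNNT3*, *CKM* and *MYLPF* was −0.79. Among 2577 genes with a symbol in the lists and a mean of at least 1 CPM, the 3 with the course most like that of *CCL24* were *CD163*, *C1QC* and *C1QB*, each at r = 0.96. The part of macrophage number in the fall of *CCL24* was not tested.

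**Figure D5:**
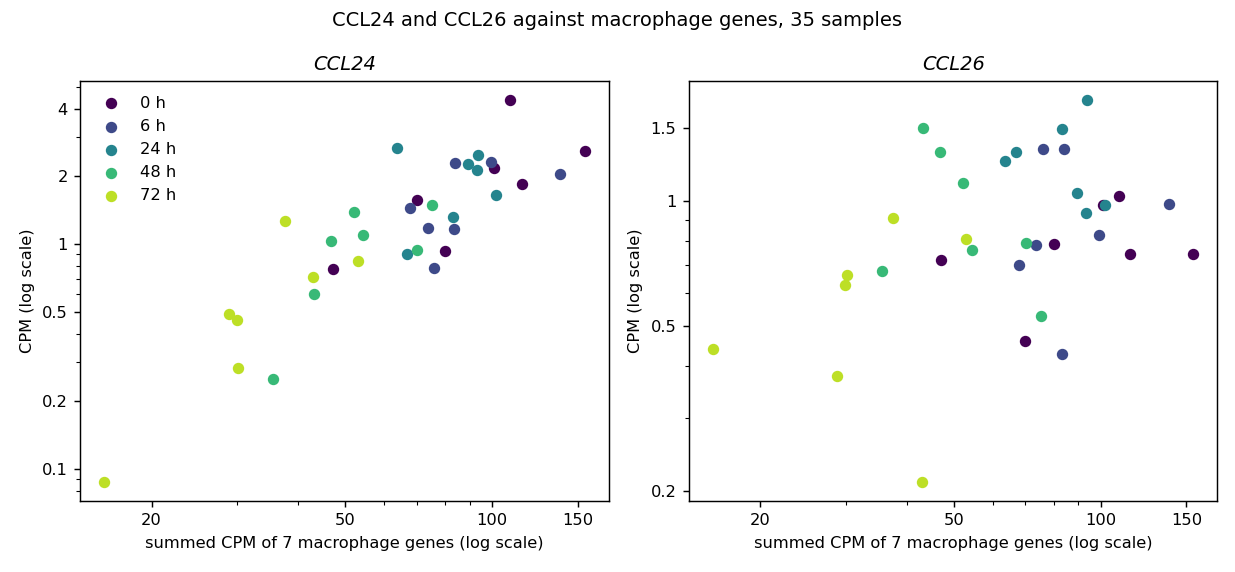
CPM of *CCL24* (left) and *CCL26* (right) against the summed CPM of 7 macrophage genes, both axes on a log scale, with 1 point per sample (35) coloured by time. The 72 h samples lie at 16 to 53 CPM of the sum, and *CCL24* descends with it to 0.0879 CPM while *CCL26* is highest in samples of 24 h.

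Markers of T and NK cells moved the other way. Of 10 listed markers 7 were named, 6 were upregulated at 48 h and 7 at 72 h, and their sum went from 5.28 to 10.8 CPM at 0 h to 11.4 to 15.4 CPM at 72 h. These 7 were likewise picked by the comparisons with 0 h. Of all genes tested 2.96% and 9.8% were upregulated at 48 h and 72 h. *CCL21* followed that sum with r = 0.73, *XCL1* with 0.65 and *CCL1* with 0.64, against 0.23 for *CXCL8*, over the same 35 samples and with no test. Other sums gave values of like size: with the summed muscle genes *TNNT3*, *CKM* and *MYLPF* the r was 0.60 for *CCL21*, 0.63 for *XCL1* and 0.61 for *CCL1*, and with the macrophage sum it was −0.54, −0.59 and −0.73. The genes most like *CCL21* were *TPSB2* (r = 0.81), a mast cell tryptase, *COL7A1* (0.79), an anchoring collagen, and *ZNF683* (0.78), a transcription factor of resident T cells. Those most like *CXCL8* were *ADM*, *GADD45B* and *PNMT*, at only 0.62, 0.59 and 0.58.

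Markers of other cell types, also picked through the lists, were summed too, and the part of these cells was not tested. Of 8 neutrophil markers 2 were named, with a sum of 0.414 to 2.62 CPM at 0 h (median 0.97), 0.686 to 6.9 CPM at 48 h (median 2.13) and 0.752 to 5.02 CPM at 72 h (median 1.13). The r of this sum was 0.36 with *CXCL8* and 0.11 with *CXCL3*, the neutrophil attractants, and 0.45 with *CCL21*, 0.42 with *XCL1* and 0.40 with *CCL25*. The haemoglobin genes *HBA* and *HBB* summed to 0.052 to 3.59 CPM at 0 h (median 0.217) and 0.126 to 72.1 CPM at 48 h (median 5.02), with animal 101 the highest at 48 h. At 72 h their sum was back at 0.152 to 5.9 CPM (median 0.406). All 6 adipocyte genes were downregulated at 48 h and 72 h, when 6.3% and 15.4% of all genes tested were. Their sum was 151 to 415 CPM at 0 h and 39.4 to 138 CPM at 72 h. Both named B cell markers were upregulated at 48 h, when 2.96% of all genes tested were. Their sum was 0.208 to 0.542 CPM at 0 h, 0.608 to 1.14 at 48 h (median 0.848) and 0.45 to 2.28 at 72 h (median 0.614). *PDGFRA*, the only fibroblast gene named of 6, was at 31.9 to 66.2 CPM at 0 h and 13.7 to 33.7 CPM at 72 h. The muscle genes *TNNT3*, *CKM* and *MYLPF* summed to 27600 to 33300 CPM at 0 h and 45200 to 68100 CPM at 72 h, so that markers of the labelled tissue were present in every library. Lists of eosinophil and mast cell genes and of blood endothelium had 0 of 7 and 0 of 6 genes named and are not analysed here. The mast cell gene *TPSB2* is named by the study but was not on the list used here, so the 0 of 7 speaks for that list only.

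Pairs of chemokine genes within animals, over the same 35 samples, gave r = 0.78 for *CCL1* and *CXCL3*, 0.60 for *CCL21* and *XCL1* and 0.58 for *CCL24* and *CCL26*, as a description with no test. At the other end stood *CCL24* and *CCL25* with r = −0.62. *CXCL8* and *CXCL3*, both attractants of neutrophils, had r = −0.02.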

How the data were processed

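Each of the 35 columns of the table, matched to its sample by title, holds deposited raw counts per gene: whole numbers that the authors made with Trimmomatic 0.39, FastQC 0.11.8, STAR 2.7.0f and featureCounts 1.6.4 on ARS-UCD1.2, neither normalized nor pooled. Libraries are described as stranded, but the counting option printed in the methods is the unstranded one. The counts used here are labelled reverse strand. Their totals of 20568418 to 104275821 match the range that the paper gives for reads assigned to the sense strand, so they were taken as strand-specific. Symbols came from the study's lists of DE genes (3106 of 3640 identifiers had one), so that a gene never called there has no symbol here. The copy of the 72 h downregulated list that was read is shortened. Fold changes and p-values in those lists were not used.

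Counts were analysed in R 4.3.3 with edgeR 4.0.16: filterByExpr by time (minimum count 10), TMM scaling (factors 0.846 to 1.11), a negative binomial model of time blocked by animal, and the quasi-likelihood test, adjusted by Benjamini-Hochberg over 14630 genes, with no p adjusted over the 10 genes alone. Calls needed an FDR under 0.05 and a fold change above 1.5. SEs come from the model's Fisher information and its quasi-dispersion; log2 CPM used a prior count of 2, and 0.1 CPM was added to marker sums before the log. The same number marks 1 carcass: deviations from the time means correlated within animals (median r 0.58, over 0.1 in 70 of 70 pairs) and not between animals (median −0.11 over 420 pairs). One read was worth 0.01 to 0.0506 CPM, which limits the precision of genes with few reads. Alternatives were the likelihood ratio test, DESeq2 1.42.0, limma 3.58.1 (voom), other scaling and filters, no block, only the time points compared, thinned counts, and leaving out each animal. Scripts were tested on simulated data. The genes named are the 10 members, the listed receptor, signalling and inflammatory genes that were called at any time (up to 6 a list), cell type markers, and the 3 genes most like *CXCL8*, *CCL21* and *CCL24*. Members and lists were chosen with earlier results of these data known. Some genes are not reported here and were left out of the lists.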

Additional observations from a re-analysis of the deposited data

Results flagged for a closer look

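Dixon's criterion for an animal that stands apart was applied to CPM without a log. Chance meets it in about 1 of 20 groups of normally distributed values, a rate that may not hold for CPM. In 8 of the 50 groups of 7 samples (10 genes at 5 time points) 1 animal stood apart from the other 6, each time high. The values of 1 animal at several times are not independent. Animal 103 was such a case 4 times, always high: *CXCL3* at 0 h was 12.4 CPM with the next animal at 6.91, *CCL21* at 72 h was 11.2 CPM with the next at 4.3, *CCL11* at 48 h was 0.679 CPM with the next at 0.299, and *XCL1* at 24 h was 0.465 CPM with the next at 0.211. *CXCL8* at 6 h was 1.44 CPM in animal 104, with the next animal at 0.702. *CXCL9* at 72 h was 2.13 CPM in animal 202, with the next at 1.09. *CCL25* at 6 h was 0.815 CPM in animal 107, with the next at 0.552. *XCL1* at 0 h was 0.228 CPM in animal 201, with the next at 0.115.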

How the results depend on the processing

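No log2 fold change that was called turned its direction under any alternative run. Called values stayed past the thresholds in 315 cases and dropped below them in 53, and values not called came to pass in 3. The numbers of chemokine genes called moved most without the animal block, where upregulated genes numbered 0, 0, 2 and 4 at 6, 24, 48 and 72 h, downregulated genes 1 at 48 h and 1 at 72 h, and DE genes 0 from 24 to 48 h and 0 from 48 to 72 h; downregulated receptor genes were then 0 at 6 h and 0 at 48 h.

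When 1 CPM in 7 samples was required, only 6 of the 10 genes were tested, and 0 were upregulated at 6 h, 1 at 48 h and 3 at 72 h; downregulated receptors then numbered 0, 0 and 1 at 6, 48 and 72 h, and upregulated receptors 1 at 72 h. With counts thinned to the smallest library 8 were tested, with 3 upregulated at 48 h and 2 DE from 48 to 72 h, and downregulated receptors were 0 at 6 h, 0 at 48 h and 1 at 72 h. With only the time points compared in the fit, 1 gene was downregulated at 24 h, 3 were upregulated at 48 h, 0 receptors were downregulated at 48 h and 1 gene was DE from 6 to 24 h. DESeq2 size factors and the absence of a filter each left 1 downregulated gene at 48 h, and without a filter 0 receptors were downregulated at 6 h. The likelihood ratio test and DESeq2 each gave 1 downregulated gene at 72 h and 1 upregulated receptor at 6 h, the likelihood ratio test 1 downregulated receptor at 24 h, and limma voom 2 at 48 h. The causes were not tested beyond the fewer genes or samples that these settings hold.

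Leaving out each animal in turn gave 1 upregulated chemokine gene at 6 h each time, 1 to 3 at 24 h, 3 to 5 at 48 h and 5 to 6 at 72 h, downregulated 1 to 2 at 48 h and 1 to 3 at 72 h, and 3 to 4 DE from 48 to 72 h. For receptors the range was 0 to 1 downregulated at 6 h, 0 to 1 upregulated and 0 to 1 downregulated at 24 h, 2 to 3 upregulated and 0 to 2 downregulated at 48 h, and 2 to 3 upregulated and 2 to 3 downregulated at 72 h. The number of genes that differed between animals was 8 to 10 without 1 animal and 6 to 9 under the other settings.

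Depth limits *CXCL8*, *CCL11* and *XCL1* most, whose libraries held as few as 2, 0 and 2 reads. Changes too small for 7 animals at such counts would not have been detectable.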
